A study of Rattus norvegicus with 12 samples.

Results

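The genes described here encode the rat major histocompatibility complex (MHC) and the machinery that loads peptides onto its molecules. The set holds every gene whose symbol starts with RT1-, the name of the rat MHC, together with B2m, Cd74, Tap1, Tap2, Tapbp, Ciita, Nlrc5, Psmb8, Psmb9 and Psmb10. Of 18166 genes measured by a probeset with a single gene symbol, 49 belonged to it, namely 39 RT1 genes and the 10 others. By symbol, 29 RT1 genes were class I or class I-like and 10 were class II. The class I arm (RT1 class I and 8 partner genes) had 37 members and the class II arm (RT1 class II, Cd74 and Ciita) had 12.

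MHC class I molecules carry peptides made in the cytosol to the cell surface, where CD8 T cells and NK cells read them. Class II molecules carry peptides from the endosomal pathway, are read by CD4 T cells, and are made mainly by dendritic cells, macrophages and B cells, although interferon-gamma can induce them in other cells, tubular epithelium included. The rat RT1 region is known for many near-identical class I copies that differ between haplotypes, so the value of a single RT1 class I probeset in an outbred animal is uncertain. Whether sequence differences between animals affected the probesets of either class was not tested.

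Total RNA from part of each kidney was hybridised to Affymetrix arrays, and 12 arrays were analysed, 3 in each of 4 groups. All rats were male Sprague Dawley animals. CTL rats received no L-NAME and were killed alongside the others so that ages matched, and the ages themselves are not given in the sources used here. W0, W1 and W5 rats had received L-NAME, an inhibitor of nitric oxide synthases that raises blood pressure and injures the kidney, at 15 mg/kg per day with 6 g/L NaCl in the drinking water until their proteinuria passed a set level, so the time on the drug could differ between rats. W0 rats were killed when L-NAME was stopped, W1 rats 1 week later and W5 rats 5 weeks later. Whether CTL rats drank salted water is not given in the sources used here. Values were log2 levels, and in whole kidney fewer cells of a type and less RNA per cell cannot be told apart.

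The 5 measured kidney markers (the proximal tubule genes Slc34a1 and Lrp2, and Umod, Aqp2 and Slc12a3) had a mean log2 level between 10.52 and 11.02 on every array. Of these, Lrp2, Slc34a1 and Umod were lower in W0 than in CTL kidneys. Array medians lay between 5.75 and 5.92. All p-values come from limma fitted across the 18166 genes with Benjamini-Hochberg adjustment, and a gene was called at an adjusted p under 0.05. Each array was taken as 1 rat, and p-values measure the spread between these arrays. The number of arrays limits the precision: the median standard error of a log2 difference over all genes was 0.145.

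When L-NAME was stopped, 5 of the 49 members were higher in W0 than in CTL kidneys and 0 were lower. These were Psmb8, Tap2 and Tapbp of the class I pathway and RT1-DMa and RT1-DMb of the class II pathway. They made up 10.2% of the members, while 4.99% of all genes were called higher and 4.41% lower. In W1 kidneys 9 members were higher than in CTL kidneys (18.4%, against 2.23% of all genes called higher and 0.787% lower) and 0 were lower. In W5 kidneys 0 members were called in either direction, as were 0% of all genes, and at an unadjusted p under 0.05 there were 6 of 49 members (12.2%) and 1333 of 18166 genes (7.34%). The F test over the 4 groups called 7 members (RT1-DMa, Psmb8, Tapbp, RT1-DMb, RT1-Ba, Psmb10 and RT1-Da), where 6.72% of all genes were called.

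Apart from Cd74 in W1 kidneys, the calls against CTL were among the class I partners and the RT1 class II genes. Among the 8 class I partners 3 were higher in W0 kidneys and 4 in W1 kidneys than in CTL kidneys, and among the 10 RT1 class II genes 2 and 4 were. Of the 29 RT1 class I genes, 0 were called by limma in any of the 6 comparisons with all 12 arrays, although 5 of them gained a call in 1 or more other settings, as given with their values. At an unadjusted p under 0.05 there were 4 (13.8%) in W0 minus CTL, 4 (13.8%) in W1 minus CTL and 1 (3.45%) in W5 minus CTL, where 22.6%, 16% and 7.34% of all genes passed. The median log2 change of the class I partners was 0.47 in W0 minus CTL, 0.63 in W1 minus CTL and 0.12 in W5 minus CTL. For RT1 class II it was 0.35, 0.63 and 0.23, and for RT1 class I it was -0.04, 0.06 and 0.10 in the same order. Over all genes the median was -0.01, 0.03 and -0.02.

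These counts rested on few arrays. Leaving out CTL replicate 1 or CTL replicate 2 lowered the W0 minus CTL count of 5 to 2 each time (Psmb8 and RT1-DMa). Without W0 replicate 3 RT1-DMa and Tap2 remained higher and 1 other member, RT1-T24-3, was called lower. Without W0 replicate 2 the count was again 5, but only Psmb8 and RT1-DMa of the first 5 remained, and of 3 new members 2 were higher and RT1-CE15 was lower. In W1 minus CTL the count of 9 became 1 when CTL replicate 1 was left out and 2 when CTL replicate 2 was. It became 3 when W1 replicate 1 was left out and 1 when W1 replicate 2 was. The number of all genes called in W1 minus CTL fell too, to between 165 and 249 without those 4 arrays, against 548 with all 12. For the class I arm the W1 minus CTL count of 4 became 0 without W1 replicate 1 and 0 without W1 replicate 2. Over all genes the median deviation from the CTL mean was 0.12 in W1 replicate 1, -0.02 in W1 replicate 2 and -0.003 in W1 replicate 3. With each array centred on its median, 8 members were called in W1 minus CTL, 3 of them in the class I arm.

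**Figure D1:**
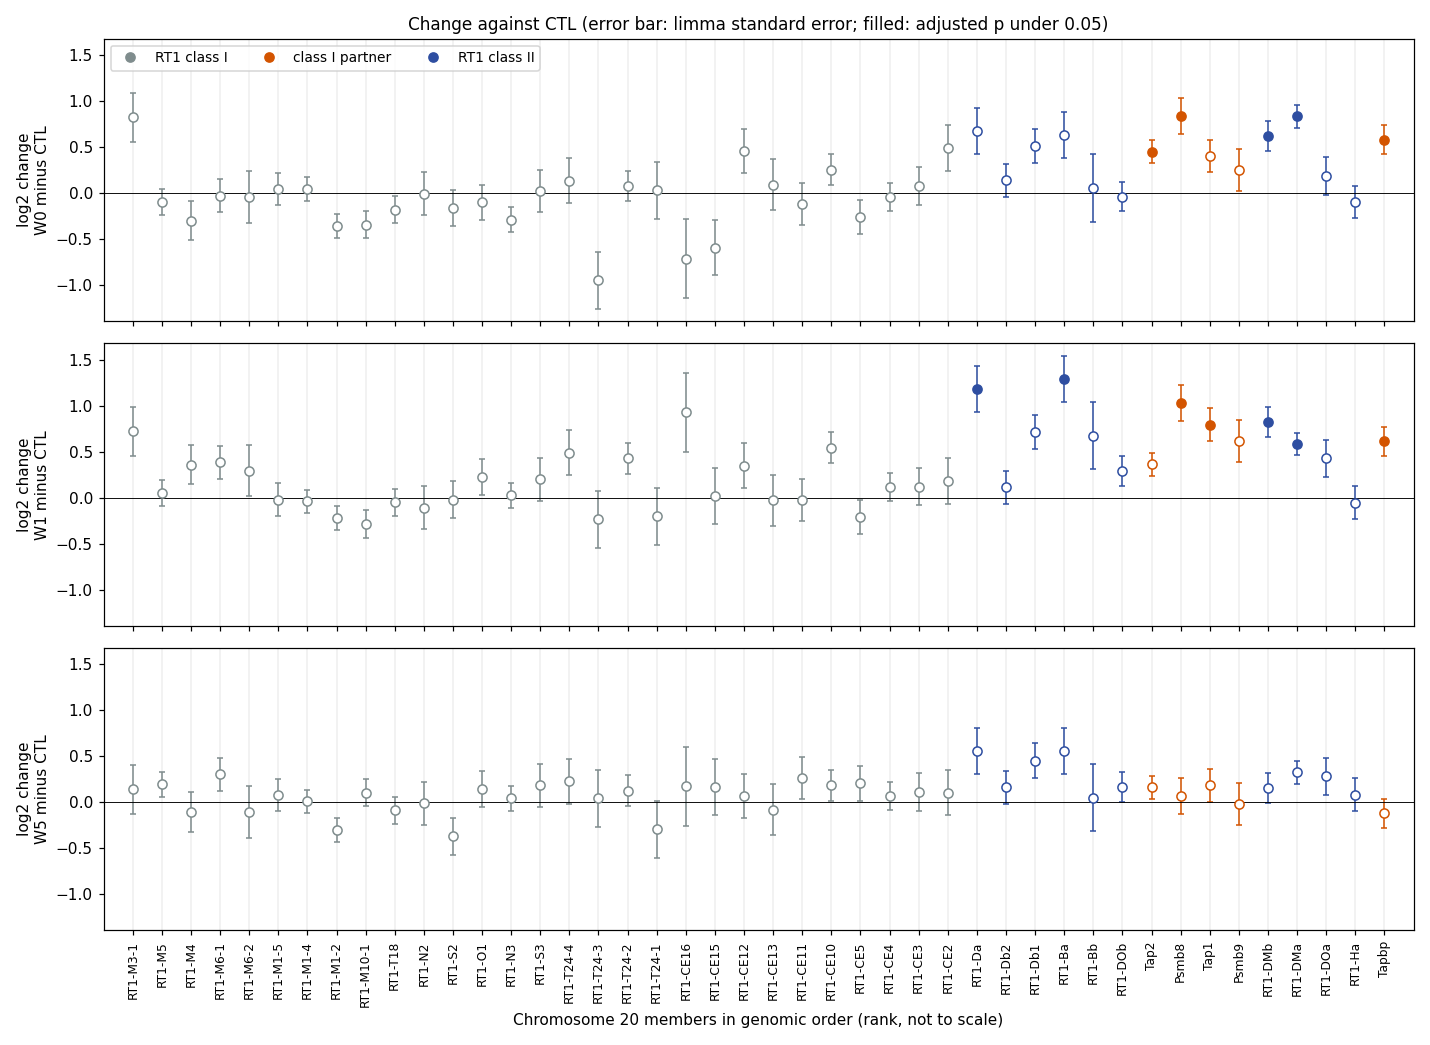
Log2 change against CTL in W0, W1 and W5 kidneys (rows) for the 44 members on chromosome 20, in genomic order, with error bars of 1 limma standard error and filled points for an adjusted p under 0.05. The filled points all lie to the right of the RT1 class I genes, among the RT1 class II genes, Psmb8, Tap1, Tap2 and Tapbp, and the W5 row has none.

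In the GRCr8 assembly 44 members lie on chromosome 20, with the 29 class I genes on one side and the class II genes on the other. Tap2, Psmb8, Tap1 and Psmb9 follow each other without another member between them, inside the class II block, with RT1-DOb on one side and RT1-DMb on the other. Tapbp lies beyond RT1-Ha at the far end. The plot of changes along chromosome 20 uses this order. B2m, Nlrc5, Psmb10, Cd74 and Ciita lie on other chromosomes.

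Among the class II genes, RT1-Da and RT1-Ba encode alpha chains of the peptide-presenting RT1-D and RT1-B molecules, and RT1-Db1 and RT1-Bb encode beta chains. The log2 level of RT1-Da was 8.19, 8.61 and 8.94 in CTL kidneys, 9.12, 8.72 and 9.94 in W0 kidneys, 9.60, 9.99 and 9.70 in W1 kidneys, and 9.14, 9.11 and 9.15 in W5 kidneys. Every W1 and every W5 kidney lay above every CTL kidney, while W0 replicate 2 lay within the CTL range and W0 replicate 3 stood with the W1 kidneys. RT1-Da was 2.27-fold higher in W1 than in CTL kidneys (log2 change 1.18, SE 0.252, adjusted p = 0.023). In W0 minus CTL the change was 0.68 (adjusted p = 0.117). The W1 minus CTL call was lost, with adjusted p up to 0.103, without CTL replicate 1, CTL replicate 2, W1 replicate 1 or W1 replicate 2.

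RT1-Ba followed the same order of groups. Its log2 level was 5.92, 6.49 and 6.68 in CTL kidneys, 6.63, 6.68 and 7.71 in W0 kidneys, 7.51, 7.80 and 7.66 in W1 kidneys, and 7.01, 6.97 and 6.81 in W5 kidneys. W1 and W5 kidneys lay above all CTL kidneys, and W0 kidneys overlapped them. This was the member with the largest called change, 2.45-fold higher in W1 than in CTL kidneys (log2 change 1.29, SE 0.25, adjusted p = 0.0155), and in W0 minus CTL the change was 0.64 (adjusted p = 0.139). Leaving out CTL replicate 1 or W1 replicate 2 ended the call (adjusted p up to 0.0742).

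For the beta chain RT1-Db1 the log2 level was 6.70, 6.88 and 7.10 in CTL kidneys, 7.27, 7.11 and 7.83 in W0 kidneys, 7.63, 7.89 and 7.32 in W1 kidneys, and 7.35, 7.28 and 7.41 in W5 kidneys. No kidney of the 3 L-NAME groups lay within the CTL range, yet the change of 0.72 in W1 minus CTL missed the threshold (SE 0.186, adjusted p = 0.0547). RT1-Bb was not called in any comparison. Its log2 level was 5.85, 6.01 and 7.07 in CTL kidneys, 6.05, 6.15 and 6.90 in W0 kidneys, 6.69, 6.40 and 7.87 in W1 kidneys, and 6.22, 6.55 and 6.31 in W5 kidneys. In CTL, W0 and W1 the third kidney stood well above the others, all groups overlapped, and the widest range within a group was 1.47.

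RT1-DMa and RT1-DMb encode the chains of the DM molecule, which exchanges peptides on class II molecules inside the cell. The log2 level of RT1-DMa was 7.50, 7.39 and 7.54 in CTL kidneys, 8.16, 8.54 and 8.24 in W0 kidneys, 7.98, 8.22 and 7.99 in W1 kidneys, and 7.73, 7.88 and 7.81 in W5 kidneys. The CTL kidneys lay below, and the W5 kidneys between CTL and the other groups, with no overlap except between W1 and W0. It was 1.79-fold higher in W0 than in CTL kidneys (log2 change 0.84, SE 0.124, adjusted p = 0.000868) and 1.5-fold higher in W1 than in CTL kidneys (0.59, adjusted p = 0.0223). It was lower in W5 than in W0 kidneys (change -0.51, adjusted p = 0.0292). Its W0 minus CTL call held without each array in turn and under every other setting tried, and it was the single call among the 17 of these members to do so (adjusted p between 0.000347 and 0.00861). The W1 minus CTL call was lost without any 1 CTL array or W1 replicate 2 (adjusted p up to 0.102), and the W5 minus W0 call without W0 replicate 2, W0 replicate 3 or any 1 W5 array (up to 0.108).

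RT1-DMb had log2 levels of 7.57, 7.74 and 7.95 in CTL kidneys, 8.13, 8.50 and 8.50 in W0 kidneys, 8.53, 8.46 and 8.74 in W1 kidneys, and 7.70, 7.78 and 8.24 in W5 kidneys. W0 and W1 kidneys lay above all CTL kidneys, and W5 kidneys overlapped both CTL and W0 kidneys. The change was 0.62 in W0 minus CTL (SE 0.164, adjusted p = 0.0285) and 0.82 in W1 minus CTL (SE 0.164, adjusted p = 0.0171). Both calls were lost without CTL replicate 1 or CTL replicate 2, the first also without W0 replicate 2 or 3 (adjusted p up to 0.115) and the second also without W1 replicate 3 (up to 0.079). RT1-DMa had its highest mean in W0 and RT1-DMb in W1, but neither differed between W1 and W0 at the threshold.

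Cd74, the invariant chain that holds the peptide groove of new class II molecules, had log2 levels of 10.52, 10.95 and 10.99 in CTL kidneys, 11.10, 11.11 and 11.62 in W0 kidneys, 11.42, 11.79 and 11.52 in W1 kidneys, and 11.22, 11.21 and 11.10 in W5 kidneys. All 9 kidneys of L-NAME rats lay above the 3 CTL kidneys. The change was called in W1 minus CTL (0.75, SE 0.166, 1.69-fold, adjusted p = 0.0268) and missed the threshold in W0 minus CTL (0.45, adjusted p = 0.114). Without CTL replicate 1, CTL replicate 2 or any 1 W1 array the call was lost (adjusted p up to 0.12). Ciita, the class II transactivator, had log2 levels of 4.95, 4.98 and 4.85 in CTL kidneys and 5.26, 5.48 and 5.27 in W1 kidneys. Those groups did not overlap, and the change of 0.41 in W1 minus CTL had an adjusted p of 0.118.

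The remaining class II genes were not called in any comparison. RT1-DOa and RT1-DOb, the chains of the DO molecule that restrains DM, ranged between 4.63 and 5.67 and between 4.87 and 5.58 over the 12 kidneys. RT1-Db2 ranged between 3.44 and 4.28 and RT1-Ha between 4.15 and 4.79. In these 4 genes the CTL kidneys overlapped the W0 and the W5 kidneys. In RT1-DOa and RT1-DOb all W1 kidneys lay above all CTL kidneys. The 6 RT1 class II genes above the median log2 level of all genes (5.89) were RT1-Da, RT1-Ba, RT1-Bb, RT1-Db1, RT1-DMa and RT1-DMb, and these 4 lay under it.

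**Figure D2:**
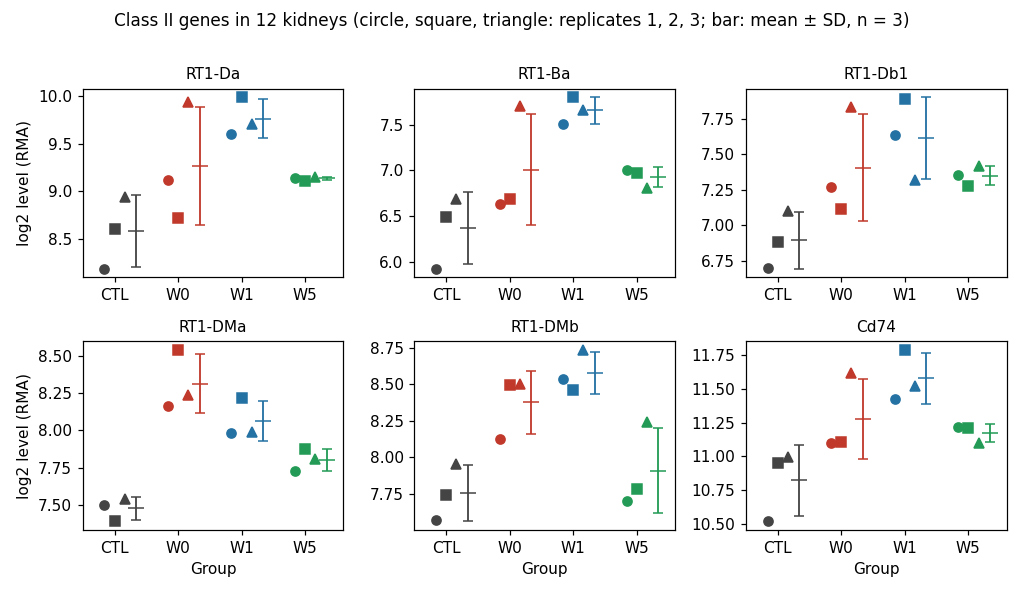
Log2 level (RMA, vertical axis) of 6 class II genes in each of 12 kidneys by group, with the mean and SD of 3 kidneys beside the points. Cd74, RT1-Db1 and RT1-DMa have all L-NAME kidneys above all CTL kidneys, and in W0 the 3 kidneys of RT1-Da, RT1-Ba and Cd74 spread widely with replicate 3 highest.

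Class II promoters in mammals are known for an upstream element, the X box, set at a fixed distance before an inverted CCAAT element, the Y box, which are bound by the RFX complex and NF-Y and brought under the control of CIITA. RefSeq windows of 250 bases before to 50 bases after the start were matched for 44 of the 49 members (GRCr8), and RT1-DMb, Ciita, Nlrc5, RT1-M4 and RT1-M1-4 had none in the table used. The start was the one used for the window, which is not always the outer end of the annotated gene. For RT1-Da, RT1-Db1, Tapbp and B2m it lay inside the annotated gene, so some bases shown before the start are within the gene. Windows were searched on both strands for GCAAC followed by ATTGG with their first bases 30 to 33 bases apart, a spacing chosen after these promoters had been read. It was found in 7 of 9 RT1 class II windows, in 0 of 27 RT1 class I windows, in 0 of 7 class I partner windows, not in that of Cd74, and in 61 of 33469 windows in all (0.182%). Searched alone on both strands, CCAAT, which reads as the second motif on the opposite strand, was in 37.5% of all windows, and the first motif was in 35.1%.

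The 160 bases before the start are shown for 3 genes with the pair and for RT1-DMa, whose window had ATTGG at 2 places and no GCAAC before it at that spacing. Capitals mark GCAAC and ATTGG, positions count back from -1, the base before the start, and each strand is read 5′ to 3′.
RT1-Da, chr20:4515255-4515414, plus strand, GCAAC from -82 and ATTGG from -49: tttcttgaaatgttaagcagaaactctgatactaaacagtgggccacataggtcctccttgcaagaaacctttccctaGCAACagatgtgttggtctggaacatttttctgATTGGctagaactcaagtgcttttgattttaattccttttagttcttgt
RT1-Ba, chr20:4576897-4577056, plus strand, GCAAC from -76 and ATTGG from -43: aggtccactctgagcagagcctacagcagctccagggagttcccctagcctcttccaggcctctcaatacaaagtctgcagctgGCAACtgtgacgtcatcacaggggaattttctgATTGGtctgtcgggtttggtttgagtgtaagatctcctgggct
RT1-Db1, chr20:4560163-4560322, minus strand, GCAAC from -112 and ATTGG from -80: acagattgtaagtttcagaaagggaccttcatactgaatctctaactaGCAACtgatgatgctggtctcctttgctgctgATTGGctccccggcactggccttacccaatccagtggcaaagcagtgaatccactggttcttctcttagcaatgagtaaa
RT1-DMa, chr20:4712336-4712495, minus strand, ATTGG from -64 and from -34: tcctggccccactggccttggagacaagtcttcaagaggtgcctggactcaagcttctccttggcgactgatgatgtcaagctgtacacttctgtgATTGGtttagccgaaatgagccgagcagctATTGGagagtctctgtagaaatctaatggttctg
The exact pair was also in the windows of RT1-Db2, RT1-DOa, RT1-DOb and RT1-Ha, which were not called. It was absent from those of RT1-Bb and of RT1-DMa and Cd74, both of which were called. These exact letters therefore did not separate called from uncalled class II genes. Near matches were not searched. The RT1-DMa bases above have gcgac in place of GCAAC, at a spacing within the searched range before the ATTGG from -64. Whether those bases act as an X box was not tested.

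Of the class I partners, Psmb8, Psmb9 and Psmb10 encode the catalytic subunits that replace those of the standard proteasome in the immunoproteasome. The log2 level of Psmb8 was 6.38, 6.36 and 6.30 in CTL kidneys, 6.82, 7.07 and 7.69 in W0 kidneys, 7.52, 7.60 and 7.02 in W1 kidneys, and 6.39, 6.33 and 6.54 in W5 kidneys. W0 and W1 kidneys lay above all CTL and all W5 kidneys, and W5 overlapped CTL. Psmb8 was 1.80-fold higher in W0 than in CTL kidneys (log2 change 0.85, SE 0.196, adjusted p = 0.0145) and 2.05-fold higher in W1 than in CTL kidneys (1.03, adjusted p = 0.0144). It was lower in W5 than in W0 kidneys (change -0.77, adjusted p = 0.036), and the change of -0.96 in W5 minus W1 missed the threshold (adjusted p = 0.0593). The W0 minus CTL call was lost without W0 replicate 3 (adjusted p = 0.0519), the W1 minus CTL call without W1 replicate 1 or 2 (up to 0.0741), and the W5 minus W0 call without CTL replicate 1 or 2, W0 replicate 2 or 3, or any 1 W5 array (up to 0.141).

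Psmb10 had log2 levels of 6.81, 6.74 and 6.84 in CTL kidneys, 6.99, 7.37 and 7.76 in W0 kidneys, 7.58, 7.75 and 7.39 in W1 kidneys, and 6.81, 6.89 and 7.19 in W5 kidneys. It was called in W1 minus CTL (0.78, SE 0.173, 1.71-fold, adjusted p = 0.0275), and in W0 minus CTL the change of 0.58 had an adjusted p of 0.0519 although the groups did not overlap. Its call was lost without any 1 CTL array, W1 replicate 1 or W1 replicate 2 (adjusted p up to 0.121). Psmb9 had log2 levels of 7.15, 7.24 and 7.60 in CTL kidneys, 7.02, 7.58 and 8.16 in W0 kidneys, 7.76, 8.08 and 8.0 in W1 kidneys, and 7.12, 7.26 and 7.55 in W5 kidneys. W1 kidneys lay above all CTL kidneys and the change of 0.62 was not called (adjusted p = 0.188). The corresponding standard subunits Psmb5, Psmb6 and Psmb7 gave 0 calls in 3 genes against CTL in any group, with log2 changes between -0.23 and 0.06.

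Tap1 and Tap2 form the transporter that moves peptides into the endoplasmic reticulum. Tap1 had log2 levels of 5.72, 5.43 and 5.91 in CTL kidneys, 6.05, 5.86 and 6.37 in W0 kidneys, 6.71, 6.36 and 6.38 in W1 kidneys, and 5.66, 5.76 and 6.19 in W5 kidneys. W1 kidneys lay above all CTL kidneys and W0 kidneys overlapped them. It was 1.74-fold higher in W1 than in CTL kidneys (0.80, SE 0.179, adjusted p = 0.0281), and 0.41 higher on the log2 scale in W0 minus CTL without a call (adjusted p = 0.193). Without CTL replicate 1 or 2, or W1 replicate 1 or 2, the call was lost (adjusted p up to 0.122).

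Tap2 was called instead at W0. Its log2 level was 5.01, 5.11 and 5.32 in CTL kidneys, 5.67, 5.72 and 5.42 in W0 kidneys, 5.48, 5.63 and 5.43 in W1 kidneys, and 5.31, 5.22 and 5.41 in W5 kidneys. W0 and W1 kidneys lay above all CTL kidneys. The change was 0.46 in W0 minus CTL (SE 0.124, adjusted p = 0.0337) and 0.37 in W1 minus CTL (SE 0.124, adjusted p = 0.145). The W0 call was lost without CTL replicate 1 or 2, or W0 replicate 1 or 2 (adjusted p up to 0.131). A call in one of these comparisons and not in the other does not show that Tap1 and Tap2 differed, and that difference was not tested.

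Tapbp encodes tapasin, which holds class I molecules at the transporter until a peptide binds. Its log2 level was 7.19, 7.05 and 7.51 in CTL kidneys, 7.69, 7.86 and 7.96 in W0 kidneys, 8.15, 7.81 and 7.64 in W1 kidneys, and 7.24, 6.98 and 7.18 in W5 kidneys. W0 and W1 kidneys lay above all CTL and all W5 kidneys. It was higher in W0 than in CTL kidneys by 0.58 (SE 0.155, 1.5-fold, adjusted p = 0.0299) and in W1 than in CTL kidneys by 0.61 (SE 0.155, adjusted p = 0.0498). The first call was lost without CTL replicate 1 or 2, or W0 replicate 2 or 3 (adjusted p up to 0.123). The second was lost in 12 of 20 other settings (up to 0.18), among them leaving out CTL replicate 1 or 2, W0 replicate 2, W1 replicate 1 or 2, or any 1 W5 array. In W5 minus W0 the change was -0.70 (adjusted p = 0.0177) and in W5 minus W1 it was -0.73 (adjusted p = 0.069). The W5 minus W0 call was lost without W0 replicate 2 or 3, or W5 replicate 2 (adjusted p up to 0.0978).

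Nlrc5, the class I transactivator, had log2 levels of 5.27, 5.07 and 5.07 in CTL kidneys, 5.41, 5.62 and 5.84 in W0 kidneys, 6.02, 5.83 and 5.48 in W1 kidneys, and 5.62, 6.01 and 5.33 in W5 kidneys. All L-NAME kidneys lay above all CTL kidneys, and no change was called (W0 minus CTL 0.48, adjusted p = 0.122, and W1 minus CTL 0.64, adjusted p = 0.0787). B2m, the light chain of every class I molecule, had log2 levels of 11.74, 11.76 and 11.97 in CTL kidneys, 11.91, 12.10 and 12.09 in W0 kidneys, 11.87, 12.12 and 11.98 in W1 kidneys, and 11.75, 11.77 and 12.06 in W5 kidneys. Its groups overlapped, and its change was 0.21 in W0 minus CTL (adjusted p = 0.377).

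**Figure D3:**
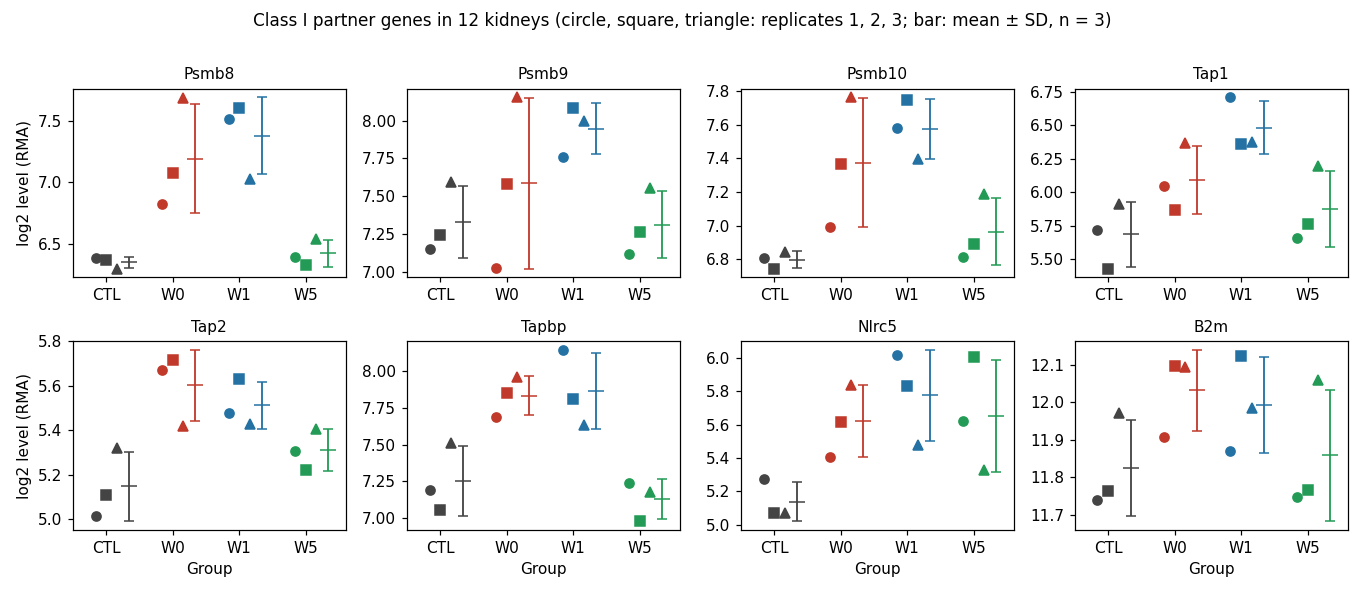
Log2 level (RMA, vertical axis) of the 8 class I partner genes in each of 12 kidneys by group, with the mean and SD of 3 kidneys beside the points. Psmb8 and Tapbp show W0 and W1 kidneys above all CTL and all W5 kidneys, and B2m stays between 11.74 and 12.12 in every group.

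Interferon-inducible genes often carry an element with 2 GAAA blocks, to which factors of the IRF family bind. The 10 letters GAAANNGAAA, searched on both strands, were in 6 of 7 class I partner windows, 3 of 27 RT1 class I windows, 0 of 9 RT1 class II windows and 3.92% of all windows. The partner whose window lacked it was Psmb9, and Nlrc5 had no window in the table. The match of Tap1 lies between Tap1 and Psmb9, outside the window of Psmb9. In Psmb8 the match ran across the start, from -4. The bases before the start are shown for the 5 others, B2m included because it carried the letters and was not called. Capitals mark each match, and Tapbp has 2 that overlap, both inside its annotated gene.
Tap1, chr20:4668544-4668703, minus strand, match from -121, read on the opposite strand: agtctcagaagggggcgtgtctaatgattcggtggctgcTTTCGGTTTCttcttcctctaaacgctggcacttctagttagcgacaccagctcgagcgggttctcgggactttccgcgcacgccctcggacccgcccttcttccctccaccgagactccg
Tap2, chr20:4652297-4652456, minus strand, match from -41: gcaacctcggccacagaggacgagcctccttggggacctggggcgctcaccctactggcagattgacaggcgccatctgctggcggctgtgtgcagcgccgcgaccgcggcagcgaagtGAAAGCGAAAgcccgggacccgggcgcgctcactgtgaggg
Tapbp, chr20:4967878-4968037, minus strand, matches from -26 and from -20: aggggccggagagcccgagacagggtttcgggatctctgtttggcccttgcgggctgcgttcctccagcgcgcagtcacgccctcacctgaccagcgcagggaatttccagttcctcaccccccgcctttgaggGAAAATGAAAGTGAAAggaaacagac
Psmb10, chr19:50743293-50743452, minus strand, matches from -73 and from -17: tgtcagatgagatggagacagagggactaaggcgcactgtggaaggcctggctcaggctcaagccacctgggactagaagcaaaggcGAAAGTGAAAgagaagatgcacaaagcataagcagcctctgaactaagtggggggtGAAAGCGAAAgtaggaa
B2m, chr3:129549170-129549329, plus strand, match from -150: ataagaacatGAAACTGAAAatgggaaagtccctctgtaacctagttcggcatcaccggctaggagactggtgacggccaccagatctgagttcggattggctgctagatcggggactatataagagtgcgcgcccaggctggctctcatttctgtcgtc
A match is only these letters in a window, and binding was not measured.

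No RT1 class I gene with a single-symbol probeset passed the test with all arrays, and the difference from the partners was not tested. Their log2 changes ran between -0.94 and 0.83 in W0 minus CTL, between -0.28 and 0.93 in W1 minus CTL and between -0.37 and 0.30 in W5 minus CTL. In W0 minus CTL 12 of 29 changes were positive (8882 of 18166 over all genes), in W1 minus CTL 17 (10053) and in W5 minus CTL 21 (8370). The median half-width of a 95% confidence interval for 1 of these genes was 0.44, so a change of the size seen in Tap2 could have been missed. Of the 29, 7 lay above the median log2 level of all genes, and RT1-M10-1 and RT1-T24-2 are annotated as long noncoding RNAs in RefSeq. Their means over the 12 arrays ran between 2.56 and 7.58. Probesets that name several RT1 class I genes were not tested. Those for RT1-A1, RT1-A2 and RT1-A3 (mean 8.29 in CTL kidneys) and for RT1-CE1 and RT1-CE12 (10.25) lay above that range. The absence of calls therefore does not cover them.

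The CE genes, a class I cluster, showed this spread. RT1-CE10 had log2 levels of 5.36, 5.78 and 5.93 in CTL kidneys and 6.38, 6.31 and 6.02 in W1 kidneys, groups that did not overlap, with an adjusted p of 0.102. RT1-CE12 had 6.44, 6.78 and 7.29 in CTL kidneys, 6.92, 7.74 and 7.24 in W0 kidneys, 7.09, 7.56 and 6.91 in W1 kidneys, and 6.85, 6.74 and 7.13 in W5 kidneys, and all groups overlapped. RT1-CE2, RT1-CE4 and RT1-CE5 lay between 4.89 and 6.45 over the 12 kidneys, and RT1-CE3, RT1-CE11 and RT1-CE13 between 3.03 and 4.84. No single-symbol probeset measured an RT1-A gene, the classical class I genes of the rat.

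Of the 5 members with the widest range within a group, 4 were class I. RT1-CE16 had the widest, 2.36 within W5, where its log2 level was 5.07, 2.71 and 4.0. Its levels were 3.23, 4.30 and 3.72 in CTL kidneys, 3.07, 2.85 and 3.21 in W0 kidneys and 4.56, 4.45 and 5.03 in W1 kidneys, so that W0 lay below and W1 above all CTL kidneys, with adjusted p of 0.376 and 0.306. RT1-T24-1 (widest range 1.44) had 2.39, 2.57 and 3.07 in CTL kidneys and 3.61, 2.34 and 2.17 in W0 kidneys. RT1-CE15 (1.41) had 4.71, 4.30 and 4.14 in CTL kidneys and 3.47, 4.66 and 3.25 in W0 kidneys. Both overlapped between these groups, and RT1-M3-1 (1.35) and RT1-Bb were the other two. The pooled SD of RT1-CE16 within groups was 0.674, against a median of 0.179 over all genes.

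RT1-M3-1, whose mouse counterpart presents formylated peptides, had log2 levels of 5.28, 4.94 and 5.47 in CTL kidneys, 5.33, 6.17 and 6.68 in W0 kidneys, 6.04, 6.18 and 5.64 in W1 kidneys, and 5.17, 5.37 and 5.58 in W5 kidneys. Its adjusted p was 0.0731 in W0 minus CTL and 0.189 in W1 minus CTL. In W1 its kidneys all lay above the CTL range, and in W0 and W5 they overlapped it. Without W0 replicate 1 it was called higher in W0 minus CTL (adjusted p = 0.00312) and in W1 minus CTL (0.0486), and lower in W5 minus W0 (0.0111).

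RT1-T24-3, named after its values were seen, had log2 levels of 7.54, 6.89 and 7.39 in CTL kidneys, 5.73, 6.37 and 6.89 in W0 kidneys, 6.37, 7.36 and 7.39 in W1 kidneys, and 7.18, 7.08 and 7.69 in W5 kidneys. W0 replicate 3 reached the lowest CTL kidney. It was called lower in W0 minus CTL in 4 settings (adjusted p between 0.0335 and 0.0495), namely genes above the median level only, the replicate block, and without W0 replicate 3 or W1 replicate 1. In W5 minus W0 it was called higher in 3 settings, the last 3 of these (adjusted p between 0.0422 and 0.0497). Without W0 replicate 2, RT1-CE15 was called lower (adjusted p = 0.0142) and RT1-CE2 higher (0.0436) in W0 minus CTL, and RT1-CE15 higher in W5 minus W0 (0.0108). RT1-CE16 was called higher in W1 minus W0 in 3 settings (adjusted p between 0.0108 and 0.0432) and in W5 minus W0 without W5 replicate 2 (0.0292).

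Recovery was compared next. Between W1 and W0 kidneys 0 of 49 members were called (0.226% of all genes were called higher and 0.303% lower in W1), and 7 members passed an unadjusted p under 0.05, which is 14.3% of them against 11.2% of all genes. Between W5 and W0 kidneys 3 members were lower in W5, namely Psmb8, Tapbp and RT1-DMa, and 0 were higher, where 3.17% of all genes were lower and 1.88% higher. Between W5 and W1 kidneys 0 members were called (0.264% of all genes were called lower and 0.022% higher in W5), and 14 members passed an unadjusted p under 0.05, which is 28.6% of them against 11.4% of all genes. All 8 class I partners had a lower mean in W5 than in W1 kidneys, with a median log2 change of -0.61 against -0.05 over all genes. Of the 3 members lower in W5 than in W0 kidneys, 0 remained called without W0 replicate 2, W0 replicate 3 or W5 replicate 2, and in each of these cases 1 RT1 class I gene was called higher instead (RT1-CE15, RT1-T24-3 and RT1-CE16 in that order). Tapbp alone of the 3 remained without W5 replicate 1 or W5 replicate 3. Without W0 replicate 1 all 3 remained and 5 members were lower. In W1 minus W0, 1 member was called higher without W0 replicate 3 (RT1-Ba) and without W5 replicate 1 or W5 replicate 2 (RT1-CE16 both times). In W5 minus W1, 2 members were called lower without W0 replicate 1 and 1 each without W0 replicate 3 and without W1 replicate 3.

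At 5 weeks after L-NAME, the members of the class II arm lay on the higher side of CTL, although 0 were called (4 of 12, or 33.3%, at an unadjusted p under 0.05, against 7.34% of all genes). All 12 changes in W5 minus CTL were positive (8370 of 18166 over all genes), the smallest 0.05, with a median of 0.28. They share the same CTL and W5 arrays and are not separate observations. Of the 12, 6 (RT1-Da, RT1-Ba, RT1-Db1, RT1-DMa, Cd74 and Ciita) had all W5 kidneys above all CTL kidneys, a separation that 6.96% of all genes showed upwards and 7.44% downwards. The changes were 0.55 for RT1-Da, 0.56 for RT1-Ba, 0.45 for RT1-Db1, 0.33 for RT1-DMa and 0.35 for Cd74, with adjusted p between 0.672 and 0.68. Of the class I partners, Nlrc5 alone was separated (0.52, adjusted p = 0.649), and of the 29 RT1 class I genes 0 were separated upwards and 2 downwards. In W1 minus CTL 9 of 12 class II arm genes, 7 of 8 class I partners and 5 of 29 RT1 class I genes were separated upwards and 1 RT1 class I gene downwards, where 13.7% of all genes were separated upwards and 8.34% downwards. In W0 minus CTL the class II arm had 4, the class I partners 5 and RT1 class I 0 upwards and 4 downwards (13.3% and 13.2% of all genes).

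Markers of macrophages and dendritic cells, which make class II molecules, were higher in the same groups. Over 25 macrophage and dendritic cell markers the mean log2 level per kidney lay between 5.80 and 5.89 in CTL, between 6.22 and 6.76 in W0, between 6.47 and 6.73 in W1 and between 6.03 and 6.18 in W5, and all 3 L-NAME groups lay above CTL. In W0 minus CTL 12 of the 25 were called higher (48%, against 4.99% of all genes) and 0 lower, among them Mrc1 (1.25), Cd14 (1.24), Clec10a (1.23) and C1qb (1.21). In W1 minus CTL 13 were called higher (52%, against 2.23%). In W5 minus CTL 0 were called, 23 of 25 changes were positive (8370 of 18166 over all genes) and the median was 0.23. W0 replicate 3 had the highest mean of this list in its group, 6.76, and was also the highest W0 kidney for 9 of the 12 class II arm genes and 6 of the 8 class I partners. This was not particular to W0. Replicate 3 also had the highest list mean in CTL (5.89) and W5 (6.18), and was highest there for 8 and 5 class II arm genes and for 6 class I partners each. In W1 replicate 3 was highest for 2 class II arm genes and 0 class I partners. The part of these cells in the MHC values was not tested.

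**Figure D4:**
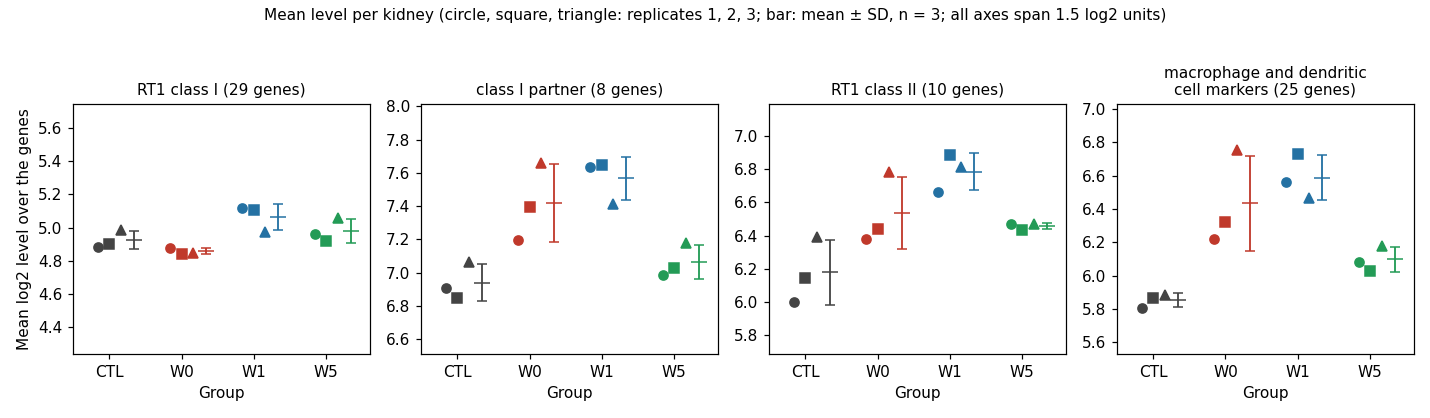
Mean log2 level per kidney (vertical axis, each panel spanning the same width) over the RT1 class I genes, the class I partners, the RT1 class II genes and the macrophage and dendritic cell markers, by group, with the mean and SD of 3 kidneys beside the points. RT1 class I (29 genes, none of them RT1-A) stays between 4.84 and 5.12 on every array, and all 4 panels have their highest group mean in W1.

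Other cell types were followed by their own marker lists. Beside them, 4.99% of all genes were called higher and 4.41% lower in W0 minus CTL, and 2.23% and 0.787% in W1 minus CTL. Of 12 T cell markers 0 were called in W0 minus CTL and 1 in W1 minus CTL, Cd4 (1.12, adjusted p = 0.0319), which rat macrophages also express and which was named after its value was seen. The mean over the T cell markers lay between 4.81 and 5.0971 in CTL, 4.91 and 5.51 in W0, 5.31 and 5.48 in W1 and 5.0995 and 5.33 in W5. All W1 and W5 kidneys thus lay above all CTL kidneys, in W5 by a narrow margin. In W5 minus CTL 0 T cell markers were called, 11 of 12 changes were positive and the median was 0.32. At an unadjusted limma p under 0.05 there were 7 of 12 in W1 minus CTL (16% of all genes) and 5 of 12 in W5 minus CTL (7.34%). Of 7 B cell markers Blnk was called in W0 minus CTL (0.82). Ms4a1, the B cell antigen CD20, named after its value was seen, had mean log2 levels of 3.92 in W1 and 3.82 in CTL kidneys. Both are low against the median of 5.89 over all genes. Of 7 NK cell markers 0 were called against CTL in any group. Their mean lay between 3.91 and 4.03 in CTL, 3.90 and 4.16 in W0, 4.09 and 4.24 in W1 and 4.10 and 4.23 in W5. All W1 and W5 kidneys thus lay above all CTL kidneys, at low levels. In W5 minus CTL 6 of 7 changes were positive with a median of 0.23. Of 8 endothelial markers 2 were lower in W0 than in CTL kidneys, Vwf (-0.68) and Ehd3 (-0.53), and in W1 minus CTL Ehd3 was called lower (-0.63). The part of these lists in the MHC values was not tested.

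Genes that feed the 2 pathways outside the member set were partly called. Over all genes 4.99% were called higher and 4.41% lower in W0 minus CTL, and 2.23% and 0.787% in W1 minus CTL. Of the 18 class II genes below, 22.2% were called higher in W0 minus CTL and 11.1% in W1 minus CTL. Of the 11 class I genes below, 9.09% and 18.2% were. Of 18 genes of class II peptide supply and regulation, 4 were higher in W0 than in CTL kidneys and 0 lower: the endosomal proteases Ctsd (1.1), Ctss (0.87) and Ctsc (0.47), and Rfx5 (0.75), a subunit of the RFX complex. In W1 minus CTL Ctsd (0.83) and Ctsc (0.50) were called, and in W5 minus CTL 0 of 18 were. Of 11 further class I loading and peptide supply genes, Tapbpl, a tapasin relative, was higher in W0 (0.57) and in W1 kidneys (0.78) than in CTL kidneys, and Erap1, which trims peptides, in W1 kidneys (0.56), the last named after its value was seen.

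Ifng itself, named after its value was seen, had mean log2 levels of 4.0 in W0, 3.99 in W1, 4.03 in W5 and 3.95 in CTL kidneys. It was not called, but these levels are low against the median of 5.89 over all genes, so a change could have been missed. Of 18 genes of the Ifng axis, 3 were higher in W0 than in CTL kidneys (16.7%, against 4.99% of all genes) and 0 lower. They were the receptor chains Ifngr1 (0.94) and Ifngr2 (0.67) and the chemokine Cxcl11 (1.15). In W1 minus CTL both receptor chains were called (0.85 and 0.63), 11.1% of the list against 2.23% of all genes. Of 24 type I interferon response genes, 1 was higher (Rsad2, 0.88) and 1 lower (Usp18, -0.94) in W0 than in CTL kidneys. That is 4.17% each, near the 4.99% and 4.41% of all genes. In W1 minus CTL 0 were called, 8 (33.3%) passed an unadjusted p of 0.05, as did 16% of all genes, and 22 of 24 changes were positive with a median of 0.35, against 0.03 over all genes. The mean log2 level of this list was 6.36, 6.53 and 6.34 in W1 kidneys and 6.04, 5.75 and 6.45 in CTL kidneys, so the groups overlapped, with CTL replicate 2 lowest and CTL replicate 3 within the W1 range.

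A list of 13 genes set up as receptors of MHC molecules gave 0 calls in W0 minus CTL. In W1 minus CTL it gave 2 (15.4%, against 2.23% of all genes called higher), Cd4 and Trem2 (0.88). Trem2 was also named after its value was seen. It is a receptor of myeloid cells and not an established receptor of MHC molecules, and rat macrophages also express Cd4. Whether the cells that read MHC molecules changed was not tested. Of 6 class I-like genes outside the RT1 complex, Azgp1 was lower in W0 than in CTL kidneys (-0.99, adjusted p = 0.0288) and no other was called against CTL.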

How the data were processed

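Per the labels and the methods, total RNA was amplified to cDNA and hybridised to Affymetrix arrays, and the authors normalised the signals by RMA. The deposited values are log2 levels of 20944 probesets on 12 arrays. The RMA software version and the array's genome build are not given in the sources used here. Gene symbols came from the platform annotation, with 18510 probesets naming 1 gene, 575 several and 1859 none. Only single-symbol probesets were used, and of several for a gene the one with the highest mean, which gave 18166 genes. No further normalisation was applied.

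All 4 groups (3 arrays each) entered 1 limma 3.58.1 fit (R 4.3.3) with moderated statistics, 6 contrasts and an F test, and Benjamini-Hochberg adjustment over all genes at 0.05. The fit was run on simulated data with independent noise for each gene and changes planted in W0 only. That simulation held no array-wide shifts and no correlated genes, so it does not show how steady the calls given here are. W0, W1 and W5 were compared with the same CTL arrays. Members and lists were chosen with earlier results of these data known. Of 161 list genes 150 were found. Named genes were all members called, the 10 partner genes, all RT1 class II and RT1-CE genes, the 5 members with the widest range within a group, and at most 4 genes of each list called in W0 minus CTL with the largest change. Promoter windows came from RefSeq (GRCr8) and were searched in Python 3.11.15. Alternatives were leaving out each array, repeated normalisation, filters, other variance models, fits on 2 groups and a replicate block.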

Additional observations from a re-analysis of the deposited data

How the results depend on the processing

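Of 853 recomputed values for 43 changes of single members, 748 kept their direction and side of the threshold, 77 lost the call, 28 gained one and 0 changed sign. Only a change called with all arrays could lose a call, and the 77 losses came from 16 such changes. The 853 values include changes that had no call to lose, so they are not the base for these losses. Among the remaining changes of members, 259 of 4853 values changed sign and 22 values of 13 changes gained a call, those of 5 RT1 class I genes among them. With only the arrays of the 2 groups compared, fewer samples estimate the spread, and the members called were 3 in W0 minus CTL (class I arm 1), 1 in W1 minus W0 (class I arm 1), 1 in W5 minus W0 (class I arm 1, class II arm 0) and 2 in W5 minus W1 (class I arm 1, class II arm 1). Repeating quantile normalisation gave 0 for the class II arm in W5 minus W0. Keeping only genes above the median level, or a trended robust prior, gave 2 members in W5 minus W1, both of the class I arm. Deviations from the group means were correlated between arrays of the same replicate number (18 pairs, r between -0.036 and 0.172, 7 over 0.1). Arrays of unlike number were not compared, so whether replicate numbers pair the arrays was not tested. A replicate block gave 5 calls for the class I arm in W0 minus CTL (4 higher, 1 lower), 2 for the class II arm in W5 minus W0, and 1 member in W5 minus W1, from the class II arm. Leaving out both W0 replicate 1 and W1 replicate 1 gave 2 calls for the class I arm in W1 minus CTL. The cause of these moves was not tested beyond the fewer samples or genes named. Without each array in turn, members called ran between 2 and 6 in W0 minus CTL, 1 and 11 in W1 minus CTL, 0 and 1 in W1 minus W0, 1 and 5 in W5 minus W0, 0 and 2 in W5 minus W1, and 4 and 9 in the F test, and stayed at 0 in W5 minus CTL. For the class I arm the ranges were 1 to 4, 0 to 5, 0 to 1, 1 to 4 and 0 to 2 in that order of contrasts, and for the class II arm 1 to 2, 0 to 6, 0 to 1, 0 to 1 and 0 to 0. With 3 arrays a group, the median 95% confidence half-width for an RT1 class I gene was 0.44 on the log2 scale.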

Other observations

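In all, 3 probesets carried the symbols of several RT1 class I genes and were left out of the members because they name no single gene. The probeset for RT1-A1, RT1-A2 and RT1-A3, the classical class I genes, had mean log2 levels of 8.29 ± 0.07 in CTL kidneys, 8.33 ± 0.19 in W0 kidneys, 8.58 ± 0.19 in W1 kidneys and 8.41 ± 0.24 in W5 kidneys (SD, n = 3 each). Its W1 kidneys lay at 8.64, 8.74 and 8.38 and its CTL kidneys at 8.28, 8.23 and 8.36, so these groups did not overlap. The probeset for RT1-CE1 and RT1-CE12 averaged 10.25 (CTL kidneys), 10.38 (W0 kidneys), 10.42 (W1 kidneys) and 10.29 (W5 kidneys), and its groups overlapped. The probeset for RT1-CE11 and RT1-CE7 lay between 4.80 and 4.92 in W1 kidneys and between 4.43 and 4.52 in CTL kidneys. None of the 3 was tested.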
